A study of Mus musculus with 6 samples.

Results

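The data are bulk RNA sequencing libraries of Tomato+ cells sorted from the mouse knee, and this account follows 10 genes that mark or control blood stem and progenitor cells: *Cd34*, *Kit*, *Flt3*, *Gata2*, *Lmo2*, *Lyl1*, *Gfi1b*, *Myb*, *Hlf* and *Mecom*. They were chosen by symbol, and all 10 were found among the 17854 genes with values. The MSC-derived group has 3 libraries of Tomato+ cells from the articular cartilage of C57BL/6 males whose knees had been made osteoarthritic by anterior cruciate ligament transection and then injected with mesenchymal stromal cells (MSCs). Those MSCs were Tomato+ cells of inguinal white adipose tissue of *Prrx1-Cre; R26tdTomato* donors and were injected without culture. The endogenous group has 3 libraries of Tomato+ cells from the knee cartilage of age- and sex-matched *Prrx1-Cre; R26tdTomato* mice. The labels give both groups as C57BL/6 males. Each group came from 3 mice, and the age of the mice at collection is not given in the sources used here. Both groups carry the same label, in which Cre expressed from *Prrx1* regulatory sequence, active in limb mesenchyme, switches on the red protein tdTomato for good. The label therefore marks descent and not a cell type, and Tomato was the only marker named for the sort.

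Blood stem cells sit at the top of a hierarchy that feeds the red cell, platelet, myeloid and lymphoid lines. Among the surface proteins of stem and progenitor cells, CD34 is a sialomucin, and KIT and FLT3 are related receptor tyrosine kinases. The ligands of those receptors, stem cell factor and FLT3 ligand, keep stem cells and early progenitors alive. Inside the nucleus GATA2, LMO2, LYL1 and GFI1B belong to a network of factors that share DNA sites, MYB drives the growth of progenitors, and HLF and MECOM (EVI1) are most closely tied to the stem cell state itself. None of these genes is read by blood stem cells alone, since *Cd34* is also a gene of endothelium and of adipose stromal cells, *Kit* and *Gata2* of mast cells, *Lmo2*, *Lyl1* and *Mecom* of endothelium, and *Gfi1b* of red cell and platelet precursors.

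RefSeq promoters of the build GRCm38.p6 were found for 9 of the 10 genes, as 12 start sites. The 250 bases before the start are shown for *Flt3*, *Lyl1*, *Gfi1b*, *Myb* and *Cd34*, the genes with an entry whose call held in all 15 other fits, so that letters known to bind factors of this network can be looked for. Capitals mark GATA letters (AGATAA or TGATAA), ETS letters (GGAAGT), RUNX letters (TGTGGT) and E-box letters (CAGNTG), searched on both strands. The windows are chr5:147400490-147400739 on the minus strand for *Flt3*, chr8:84701207-84701456 on the plus strand for *Lyl1*, chr2:28621983-28622232 on the minus strand for *Gfi1b*, chr10:21160985-21161234 on the minus strand for *Myb* and chr1:194938571-194938820 on the plus strand for *Cd34*.
Flt3: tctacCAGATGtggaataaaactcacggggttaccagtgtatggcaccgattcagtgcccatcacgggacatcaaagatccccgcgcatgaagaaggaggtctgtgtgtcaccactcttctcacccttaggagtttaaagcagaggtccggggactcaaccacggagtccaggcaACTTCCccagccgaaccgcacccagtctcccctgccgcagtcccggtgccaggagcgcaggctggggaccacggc
Lyl1: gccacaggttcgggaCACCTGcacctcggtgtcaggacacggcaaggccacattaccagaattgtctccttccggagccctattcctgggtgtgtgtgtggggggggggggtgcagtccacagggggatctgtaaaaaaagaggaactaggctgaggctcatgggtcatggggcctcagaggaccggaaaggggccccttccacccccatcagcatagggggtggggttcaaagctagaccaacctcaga
Gfi1b: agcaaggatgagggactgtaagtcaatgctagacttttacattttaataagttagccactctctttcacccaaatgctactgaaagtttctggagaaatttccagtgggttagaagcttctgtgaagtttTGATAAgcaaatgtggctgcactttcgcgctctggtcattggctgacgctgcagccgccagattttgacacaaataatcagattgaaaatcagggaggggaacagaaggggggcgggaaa
Myb: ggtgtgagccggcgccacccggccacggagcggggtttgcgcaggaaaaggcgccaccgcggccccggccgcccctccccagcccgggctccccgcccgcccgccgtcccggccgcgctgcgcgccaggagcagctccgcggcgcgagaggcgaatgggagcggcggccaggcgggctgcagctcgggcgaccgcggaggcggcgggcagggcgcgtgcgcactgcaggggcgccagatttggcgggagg
Cd34: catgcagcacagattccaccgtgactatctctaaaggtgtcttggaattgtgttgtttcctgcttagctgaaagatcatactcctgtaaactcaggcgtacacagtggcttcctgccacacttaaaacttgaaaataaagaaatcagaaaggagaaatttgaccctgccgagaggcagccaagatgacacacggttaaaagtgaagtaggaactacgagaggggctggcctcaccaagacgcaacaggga

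In these windows *Flt3* held 1 E-box and 1 ETS match, *Lyl1* held 1 E-box match, *Gfi1b* held 1 GATA match, and neither *Myb* nor *Cd34* held any of the letters. Over the 12 start sites, GATA letters occurred in 2, ETS letters in 1, RUNX letters in 0 and E-box letters in 4. Over all 32851 promoters of the same length the shares were 16.6%, 19.7%, 14.0% and 44.8%. A match is a description of the sequence and not a binding site.

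The expected counts of a library summed to between 22060628 and 24881796, and the floor, set at 3 counts, lay at 0.121 to 0.136 CPM (counts scaled to the size of the library), which covers counting error only. The endogenous libraries varied more than the MSC-derived ones, with a biological coefficient of variation of 35.1% against 6.77%, and endogenous replicate 1 stood apart, with 3459 genes at 0 counts against 1338 and 1395 in the other endogenous libraries. The labels call all 6 samples chondrocytes. All 10 chondrocyte genes of a marker list, among them *Col2a1*, *Acan* and *Sox9*, were called lower in the MSC-derived libraries (median log2 fold change -6.10). Their summed level there was 6300 to 6516 CPM against 57935 to 58212 in the endogenous ones. Of the MSC-derived sum, 5274 to 5494 CPM were *Prg4* alone, whose log2 fold change was only -0.51. All 10 common leukocyte genes were called higher, with a summed level of 9255 to 9442 CPM against 445 to 550. Tests are edgeR's quasi-likelihood test on the 14289 genes left by filterByExpr, adjusted after Benjamini-Hochberg with a threshold of 0.05. A positive log2 fold change means a higher level in the MSC-derived libraries. CPM values of genes and lists are scaled with edgeR's TMM factors. FPKM is a level per length, and the FPKM of a library summed to 808701 to 813572 in the MSC-derived group and 504768 to 573603 in the endogenous group.

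The set split. Of the 10 genes, all of which were tested, 5 were called higher in MSC-derived cells (*Lmo2*, *Lyl1*, *Flt3*, *Myb* and *Gfi1b*), where 31.3% of all genes tested were called higher. A further 2 were called lower (*Cd34* and *Gata2*), where 30.3% of all genes were, and 3 were not called (*Kit*, *Hlf* and *Mecom*). In either direction that is 7 of 10 genes beside 61.6% of all genes. In CPM the groups were fully apart for 5 genes with the MSC-derived libraries above, against a background of 38.2%, and for 2 with the endogenous libraries above, *Cd34* and *Hlf*, against 34.1%. Non-overlap in either direction was seen for 72.4% of all genes. The median log2 fold change of the 10 genes was 0.91, and that of all genes tested was 0.05. The counts of the 10 genes together made up 0.0235% to 0.0236% of an MSC-derived library and 0.0110% to 0.0129% of an endogenous one. In bulk libraries fewer cells of a type and less RNA per cell cannot be told apart.

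**Figure D1:**
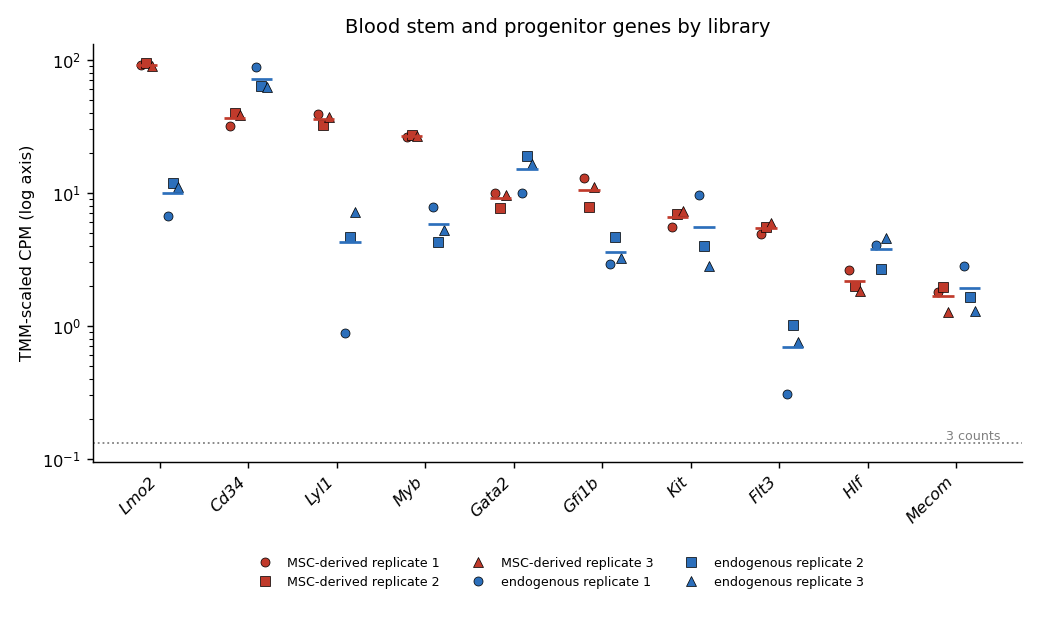
TMM-scaled CPM (log axis) of the 10 blood stem and progenitor genes in each library, with MSC-derived libraries in red and endogenous libraries in blue, symbols for replicates, a bar at each group's mean and a dotted line at 3 counts. *Lmo2*, *Lyl1*, *Myb*, *Gfi1b* and *Flt3* sit higher in all 3 MSC-derived libraries, *Cd34* and *Hlf* sit lower in all 3, and *Gata2*, *Kit* and *Mecom* overlap.

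**Figure D2:**
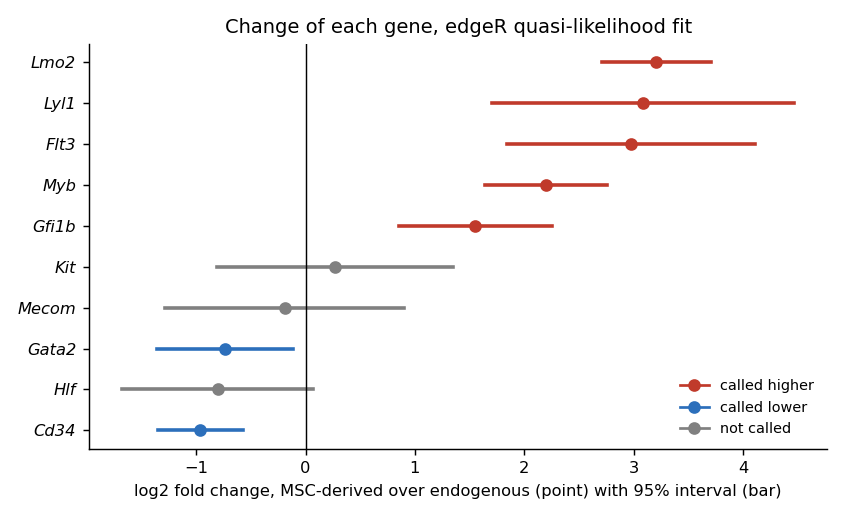
Log2 fold change of each gene, MSC-derived over endogenous, with its 95% interval as a bar, from edgeR's quasi-likelihood fit, in red where called higher, blue where called lower and grey where not called. The intervals run from 2.71 to 3.70 for *Lmo2* at the top to -1.35 to -0.57 for *Cd34* at the bottom, and those of *Kit*, *Mecom* and *Hlf* include 0.

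Among the surface genes, *Cd34* had 814, 975 and 877 counts in MSC-derived replicates 1 to 3 and 2004, 1443 and 1488 counts in endogenous replicates 1 to 3. All 3 endogenous libraries were above all 3 MSC-derived ones, with replicate 1 the highest. Per length, *Cd34* stood at 16.4 ± 1.91 FPKM in the MSC-derived and 29.4 ± 6.34 FPKM in the endogenous libraries (SD, n = 3 each), and the log2 fold change was -0.96 (standard error 0.17, edgeR adjusted p = 0.00167), a level 1.95-fold higher in the endogenous libraries. *Ptprc*, the CD45 gene of nearly all nucleated blood cells, went the other way, at 4.20 on the log2 scale with a standard error of 0.22. A list of 10 adipose stromal genes that holds *Cd34* itself had 5 genes called lower, *Cd34*, *Pdgfra*, *Col15a1*, *Dcn* and *Lum*, and 2 called higher, *Pi16* and *Cd55* (median -0.53). These shares, 50% and 20%, stand beside 30.3% and 31.3% of all genes tested. The part of stromal cells in the level of *Cd34* was not tested.

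*Flt3*, the receptor of lymphoid and dendritic progenitors, had 126, 136 and 136 counts in the MSC-derived libraries and 7, 23 and 18 in the endogenous ones. The groups were far apart, and endogenous replicate 1 was the lowest library. Its level rose from 0.193 ± 0.0961 to 1.65 ± 0.153 FPKM (SD, n = 3), or by 2.97 on the log2 scale (standard error 0.48, edgeR adjusted p = 0.00121).

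*Kit*, the stem cell factor receptor, did not pass the test. It had 142, 169 and 168 counts in the MSC-derived libraries and 220, 90 and 67 in the endogenous ones. Endogenous replicate 1 was above every MSC-derived library, whereas endogenous replicates 2 and 3 were below every one. The log2 fold change of 0.27 (standard error 0.46, 95% interval -0.81 to 1.35, adjusted p = 0.636) left room for a change in either direction. Without endogenous replicate 1 *Kit* was called higher, with a log2 fold change of 0.91 (adjusted p = 0.00180), and without endogenous replicate 3 the value was -0.046 (adjusted p = 0.933). Within a library, the ratio of *Flt3* to *Kit* in FPKM was 1.16 to 1.28 in the MSC-derived group and 0.0479 to 0.389 in the endogenous group, with no overlap.

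Of the transcription factors, *Lmo2*, a bridging protein that joins GATA and bHLH factors on DNA, was the most abundant of the 10 genes in the MSC-derived cells. Its counts were 2332, 2304 and 2036 in the MSC-derived libraries and 152, 270 and 266 in the endogenous ones. Every MSC-derived library was far above every endogenous one. The level was 69.2 ± 2.36 against 6.78 ± 1.91 FPKM (SD, n = 3), a 9.22-fold difference, 3.21 on the log2 scale (standard error 0.21, edgeR adjusted p = 8.90e-06).

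*Lyl1*, the bHLH partner of LMO2 and close relative of *Tal1*, had 994, 793 and 846 counts in the MSC-derived libraries against 20, 105 and 172 in the endogenous libraries. The groups did not overlap, but the endogenous libraries were spread widely, with a coefficient of variation of 74.9% against 9.0% in the MSC-derived group. The log2 fold change was 3.09 (standard error 0.59, adjusted p = 0.00276), with 2.55 without endogenous replicate 1 and 3.71 without endogenous replicate 3. *Lyl1* is the only one of the 10 genes whose expected counts were not whole, in 5 of the 6 libraries, which happens when RSEM divides reads between genes. In RefSeq it overlaps the protein-coding gene *Nfix*, and no source used here says that strand was kept in counting, so reads of the overlap cannot be told apart. By whole gene span, *Cd34*, *Flt3*, *Gata2*, *Lmo2*, *Gfi1b* and *Mecom* overlap noncoding RNA genes there, and strand is not stated for them either. Their expected counts were whole, and overlap of exons was not looked at. *Nfix* moved the other way, from 5417 to 6004 counts in endogenous to 955 to 1071 in MSC-derived libraries.

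*Myb*, needed for the growth of progenitors, had 674, 657 and 608 counts in the MSC-derived libraries and 179, 96 and 126 in the endogenous ones. The MSC-derived values were nearly equal, with a coefficient of variation of 1.14% after scaling. The difference was 4.59-fold (95% interval 1.64 to 2.75 on the log2 scale, edgeR adjusted p = 0.000131), from 1.64 ± 0.478 to 8.43 ± 0.0929 FPKM (SD, n = 3).

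*Gfi1b*, a zinc finger repressor of red cell and platelet precursors, had 331, 191 and 251 counts against 66, 106 and 77. It was the least even of the 10 genes within the MSC-derived group, with a coefficient of variation of 24.3%, and yet the groups did not overlap. It rose by 1.55 on the log2 scale (standard error 0.30, edgeR adjusted p = 0.00281), the smallest of the 5 increases.

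*Gata2*, the GATA factor of stem and early progenitor cells, fell. It had 256, 187 and 221 counts in the MSC-derived libraries and 226, 430 and 394 in the endogenous libraries. Endogenous replicates 2 and 3 were well above the rest, and endogenous replicate 1 lay within the MSC-derived range after scaling, just below the highest MSC-derived library. The log2 fold change was -0.73 (standard error 0.26, adjusted p = 0.0443), close to the threshold, and the call was lost in 10 of 15 other fits, in which the adjusted p reached 0.151. Without endogenous replicate 1 it was -1.01 (adjusted p = 3.21e-06).

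*Hlf*, a PAR bZIP factor of stem cells, had 67, 49 and 42 counts against 92, 60 and 110, and it was not called (log2 fold change -0.80, standard error 0.37, 95% interval -1.67 to 0.06, adjusted p = 0.0963). The scaled values of the endogenous libraries were all above those of the MSC-derived ones, although the lowest endogenous library, at 2.65 CPM, was barely above the highest MSC-derived one, at 2.62. It was called lower in 2 of 15 other fits, at -0.80 without endogenous replicate 1 (edgeR adjusted p = 0.0280) and at -0.53 in limma on log2(TPM + 1) (adjusted p = 0.0197). *Mecom*, a zinc finger factor of long-lived stem cells, had 46, 48 and 29 counts against 64, 37 and 31. These ranges overlapped almost wholly, and the log2 fold change was -0.19 (standard error 0.47, 95% interval -1.28 to 0.90, adjusted p = 0.741), or 0.14 without endogenous replicate 1 (adjusted p = 0.746).

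Left without endogenous replicate 1, 6 of the 10 genes were called higher, against 37.8% of all genes tested in that fit, and 3 lower, against 38.6%. Within the endogenous group that library did not move all genes alike. It was the highest of the 3 for *Cd34*, *Kit*, *Myb* and *Mecom* and the lowest for *Flt3*, *Lmo2*, *Lyl1*, *Gfi1b* and *Gata2* in scaled CPM. It was also the lowest endogenous library in the summed level of the common leukocyte genes, at 445 CPM, and of the erythroid genes, at 4098 CPM. In that of the adipose stromal genes it was the highest, at 10295 CPM, most of it *Dcn* (7698 CPM) and *Lum* (1700 CPM). On that list *Pdgfra*, *Cd55*, *Dcn*, *Lum* and *Cd34* were highest in this library, but *Dpp4*, *Pi16*, *Ly6a* and *Icam1* were lowest. The part of these differences in the library's values for the 10 genes was not tested.

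Levels per length put the genes in a different order in the groups. In the MSC-derived cells the order in FPKM was *Lmo2*, *Lyl1*, *Cd34*, *Myb*, *Gfi1b*, *Gata2*, *Flt3*, *Kit*, *Hlf* and *Mecom*. The neighbours *Myb* and *Gfi1b*, *Flt3* and *Kit*, and *Hlf* and *Mecom* were not apart by more than the sum of their SDs. In the endogenous cells *Cd34* came first and was apart from *Lmo2*, the next gene, and *Flt3* came last, apart from *Mecom*. From *Lmo2* down to *Mecom* no neighbours in the endogenous order were apart by more than the sum of their SDs. Of the counts of the 10 genes, *Cd34* took 54.1% to 66.1% in the endogenous libraries and 14.1% to 17.7% in the MSC-derived ones, and *Lmo2* took 5.02% to 10.2% and 39.0% to 41.8%.

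The counts can also be set against *Ptprc* in the same library, as a description. *Ptprc* had 8812, 8926 and 8136 counts in the MSC-derived libraries and 604, 340 and 394 in the endogenous ones, an 18.3-fold difference that exceeds that of each of the 10 genes, so a lower ratio in the MSC-derived libraries follows from values already given. *Lmo2* had 250.2 to 264.6 counts per 1000 *Ptprc* counts in the MSC-derived libraries and 251.7, 794.1 and 675.1 in the endogenous ones, of which replicate 1 lay within the MSC-derived range. *Lyl1* and *Flt3* overlapped as well, with endogenous replicate 1 below the MSC-derived range for both and the other endogenous libraries above it. In that library the common leukocyte genes were mixed. *Ptprc* was the highest of the endogenous libraries at 26.6 CPM against at most 16.5 in the others, and *Cd53* and *Arhgdib* were highest too. *Coro1a*, *Laptm5*, *Cd52*, *Rac2* and *Tyrobp* were lowest there, as was the sum of the list. *Myb* had 73.6 to 76.5 counts per 1000 *Ptprc* counts against 282.4 to 319.8, and *Gfi1b* 21.4 to 37.6 against 109.3 to 311.8. *Kit* had 16.1 to 20.6 against 170.1 to 364.2, and *Cd34* 92.4 to 109.2 against 3318 to 4244. On this scale 7 of the 10 genes, all but *Lmo2*, *Lyl1* and *Flt3*, were lower in all 3 MSC-derived libraries, as were 89.7% of all genes tested. Cells other than blood cells express several of these genes.

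**Figure D3:**
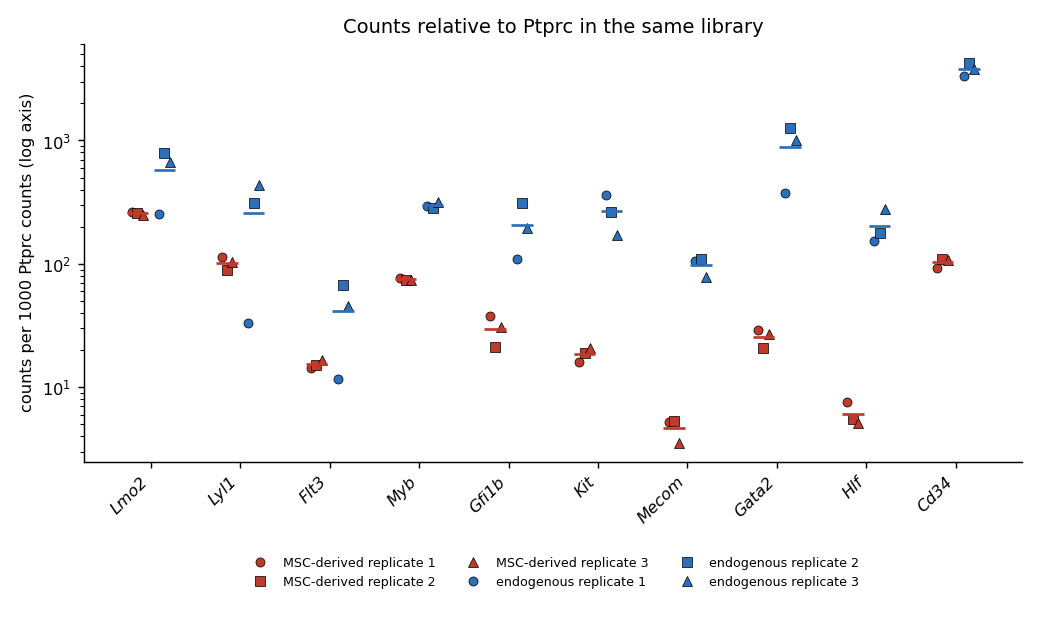
Counts of each gene per 1000 *Ptprc* counts of the same library (log axis), with MSC-derived libraries in red, endogenous libraries in blue and a bar at each group's mean. The red points lie below the blue ones for 7 genes, as they do for 89.7% of all genes tested, and overlap them for *Lmo2*, *Lyl1* and *Flt3*, where endogenous replicate 1 is the lowest blue point.

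The other factors of the stem cell network were split about as all genes were. Of 28 tested genes on a list of stem cell factors and cofactors, 11 were called higher, 8 lower and 9 were not called (median log2 fold change 0.27). That is 39.3% higher and 28.6% lower, beside 31.3% and 30.3% of all genes tested. The number called lower was 4 without MSC-derived replicate 1 or 2 and 5 without endogenous replicate 3. *Tal1*, the bHLH factor closest to *Lyl1*, was higher, with 470 to 550 counts against 80 to 132 or 2.14 on the log2 scale (standard error 0.21, edgeR adjusted p = 8.41e-05). The ETS factors went both ways. *Fli1* rose by 2.02 and *Spi1*, the PU.1 gene of myeloid and B cells, by 3.99, whereas *Erg*, also a gene of articular cartilage, had a log2 fold change of -2.51. *Runx1*, a master gene of blood formation that is read in cartilage too, had 1263 to 1434 counts against 4063 to 6073 (log2 fold change -1.87, standard error 0.18, adjusted p = 6.13e-05). *Hoxa9*, which stem cells and limb cells share, was lower at -2.32. *Ldb1*, the protein that LMO2 holds in its complex, did not pass the test (log2 fold change -0.06, 95% interval -0.39 to 0.26, adjusted p = 0.704), so the ratio of *Lmo2* to *Ldb1* in FPKM was 1.44 to 1.65 in the MSC-derived libraries and 0.135 to 0.169 in the endogenous ones.

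Relatives of the 10 genes went both ways. Of 18 tested paralogues 7 were called higher and 7 lower, with a median log2 fold change of 0.74. Each direction held 38.9% of them, beside 31.3% and 30.3% of all genes tested. *Gata1*, the GATA factor that replaces GATA2 as red cells mature, had 418, 392 and 399 counts in the MSC-derived libraries against 86, 101 and 161, and rose by 1.73 on the log2 scale (standard error 0.24, edgeR adjusted p = 0.000580). The ratio of *Gata1* to *Gata2* in FPKM was 2.90, 3.73 and 3.19 in the MSC-derived libraries and 0.675, 0.414 and 0.724 in the endogenous ones. *Gata3*, of lymphoid cells, was at 0.75 ± 0.156 against 0.32 ± 0.01 FPKM (SD, n = 3) and just missed the threshold (adjusted p = 0.0510), and *Gata6*, of mesenchyme, was lower at -3.15. *Gfi1*, the myeloid relative of *Gfi1b*, had 149 to 190 counts against 0, 14 and 26.

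The receptor family of KIT and FLT3 went both ways. *Csf1r*, the macrophage receptor, had 16357 to 18443 counts against 234 to 305, or 5.88 on the log2 scale (standard error 0.12, edgeR adjusted p = 5.66e-08). *Pdgfra* and *Pdgfrb*, of mesenchymal cells, were lower at -2.38 and -3.28. Within the MSC-derived group *Csf1r* reached 201 ± 2.33 FPKM, beside 1.38 ± 0.195 for *Kit* and 1.65 ± 0.153 for *Flt3* (SD, n = 3). Of the other relatives, *Mybl2*, of dividing cells, was higher at 2.25 (adjusted p = 0.0339) and *Mybl1* lower at -1.74, *Prdm16*, the relative of *Mecom*, was lower at -1.80 from 51 to 169 counts to 28 to 40, and *Podxl* and *Podxl2*, the relatives of *Cd34*, went in opposite directions, with 134 to 160 counts against 32 to 80 for *Podxl* and 73 to 95 against 424 to 779 for *Podxl2*.

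**Figure D4:**
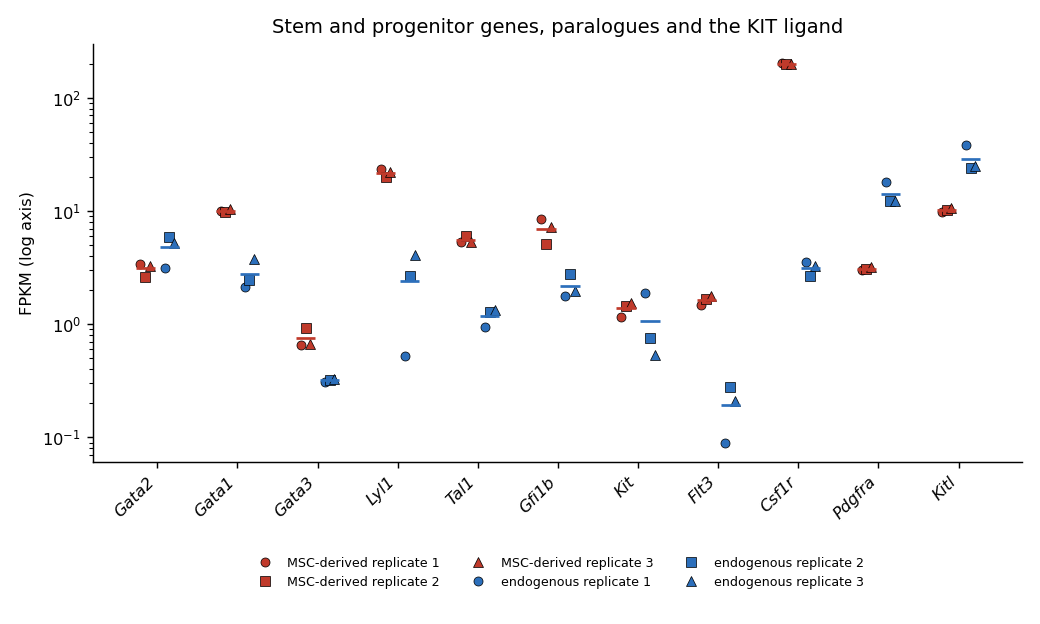
FPKM (log axis) of *Gata2*, *Lyl1*, *Gfi1b*, *Kit* and *Flt3* beside paralogues and the KIT ligand gene *Kitl* in each library, with MSC-derived libraries in red, endogenous libraries in blue and a bar at each group's mean. *Gata2* and *Gata1* change places between the groups, and *Csf1r* and *Pdgfra* change in opposite directions around *Kit*.

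The ligands were mostly lower in the MSC-derived libraries. Of 12 tested ligand and niche genes 9 were called lower and 1 higher, with a median log2 fold change of -2.63. That is 75% lower and 8.33% higher, beside 30.3% and 31.3% of all genes tested. *Kitl*, which encodes the ligand of KIT, had 1229 to 1270 counts against 3003 to 4757 (log2 fold change -1.63, standard error 0.18, adjusted p = 0.000162), so that *Kitl* was 6.94 to 8.50 times *Kit* in FPKM in the MSC-derived libraries and 20.4 to 46.0 times in the endogenous ones. *Flt3l*, the FLT3 ligand gene, did not pass the test (log2 fold change -0.14, 95% interval -0.93 to 0.64, adjusted p = 0.729). *Cxcl12*, the chemokine that retains stem cells in marrow, had 3900 to 4259 counts against 130990 to 136665 (log2 fold change -5.12), and *Il7* and *Lepr*, a marker of marrow stroma, were lower at -5.04 and -6.02. *Thpo* was near the floor in the MSC-derived libraries, with 1 to 3 counts against 22 to 31. *Vcam1* was the gene called higher, at 3.90, and it is also a gene of macrophages.

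Proteins that carry the KIT and FLT3 signal inside the cell were called higher for 12 of 21 genes and lower for 6, with a median log2 fold change of 0.97. These shares, 57.1% and 28.6%, stand beside 31.3% and 30.3% of all genes tested. The higher ones include genes known mainly from blood cells, such as *Vav1* (log2 fold change 4.75), *Lcp2* (5.33), *Inpp5d* (4.20) and *Ptpn6* (4.79), the last 2 of them brakes on receptor signals. *Stat5a* and *Socs1* were lower at -1.32 and -2.28, and *Sos1*, *Shc1* and *Stat5b* were not called.

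Other surface genes used to sort stem and progenitor cells gave 5 higher and 3 lower of 15 tested (median log2 fold change 0.43). These shares, 33.3% and 20%, stand beside 31.3% and 30.3% of all genes tested. *Cd48*, carried by progenitors and most leukocytes but not by the most primitive stem cells, had 5335 to 5606 counts against 39 to 87 (log2 fold change 6.33, standard error 0.25, adjusted p = 5.98e-07). *Slamf1*, which encodes CD150 of stem cells, had 12, 7 and 7 counts against 0, 8 and 7 and did not pass the expression filter. *Procr* was lower at -0.63 (adjusted p = 0.00456), and *Ly6a*, the Sca-1 gene, had 3697 to 4010 counts against 3597 to 4328 and was not called (log2 fold change -0.11, 95% interval -0.30 to 0.09). *Fgd5*, with 37 to 51 counts against 0, 57 and 41, was not called (edgeR adjusted p = 0.812).

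The lines that grow from progenitors differed among themselves. All 10 early granulocyte and monocyte precursor genes were called higher, (median log2 fold change 3.29), among them *Mpo* with 24367 to 27981 counts against 4683 to 5578 and *Elane* with 13148 to 15614 against 1180 to 1895. All 14 erythroid genes were called higher, with a median of 2.08, and *Klf1*, a red cell factor, had 629 to 685 counts against 71 to 176. Of 11 tested lymphoid precursor genes (median 2.78) 8 were called higher, including *Dntt* (140 to 206 counts against 0, 18 and 24) and *Igll1* (184 to 267 against 0, 16 and 21), and *Ebf1* was called lower. That is 72.7% higher and 9.09% lower, beside 31.3% and 30.3% of all genes tested. Without MSC-derived replicate 2 the number called higher was 4. Megakaryocyte and platelet genes did not move together (median 0.08), with 2 of 9 called higher, *Pf4* and *Vwf*, and 2 lower, *Gp1bb* and *Gp1ba*. Each direction held 22.2% of this list. The number lower was 4 without endogenous replicate 1 and 1 without endogenous replicate 3 or without any MSC-derived replicate. *Itga2b*, the CD41 gene of that line and of early progenitors, had 139 to 156 counts against 148 to 198 and was not called (adjusted p = 0.233).

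**Figure D5:**
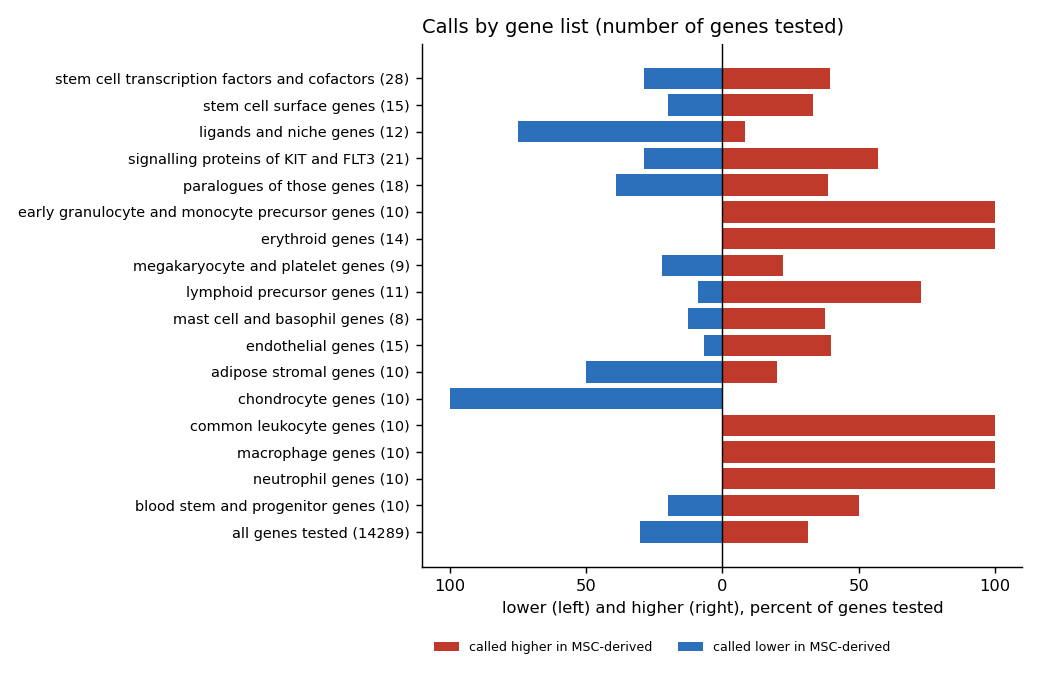
Share of tested genes called higher (red, to the right) and lower (blue, to the left) in the MSC-derived libraries for each gene list, with the number tested in brackets. The 10 blood stem and progenitor genes, at 50% higher and 20% lower, are split, unlike the granulocyte and monocyte precursor, erythroid, macrophage and neutrophil lists at 100% higher. All genes tested are at 31.3% higher and 30.3% lower.

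Cell types that share these genes were measured beside them. Of 8 tested mast cell and basophil genes, a list that holds *Kit* and *Gata2* and has a median of 0.77, 3 were called higher and 1, *Gata2*, lower. These shares, 37.5% and 12.5%, stand beside 31.3% and 30.3% of all genes tested. Without endogenous replicate 1, 6 genes of the list were called higher, where 37.8% of all genes tested in that fit were. *Gata2* lost its call without any other library. The mast cell protease genes *Cma1* and *Tpsb2* had at most 5 and 1 counts in any library, and *Cpa3* had 69 to 106 counts against 19 to 99 and was not called. Within the endogenous group the genes of the list were mixed beside *Kit*. In replicate 1, where *Kit* was highest, *Ms4a2* (74 counts against 4 and 4) and *Cpa3* (99 against 19 and 47) were highest too. *Fcer1a*, *Mcpt8*, *Hdc*, *Prss34* and *Gata2* were lowest there, and so was the sum of the list, at 104.1 CPM of a range up to 134.5. That sum rests largely on *Hdc*, at 54.3 CPM in endogenous replicate 1 and 83.9 CPM in endogenous replicate 3. Of 15 endothelial genes (median 1.21) 6 were called higher and 1 lower, or 40% and 6.67% beside 31.3% and 30.3% of all genes tested. Their summed level was 134 to 142 CPM against 66.0 to 90.4. Without endogenous replicate 1, 11 were called higher, where 37.8% of all genes tested in that fit were. *Pecam1* and *Cdh5* were higher at 2.17 and 1.59. Macrophage genes were all called higher, 10 of 10 (median log2 fold change 8.80), and neutrophil genes likewise, 10 of 10 (median 4.03). The part of any of these cell types in the levels of the 10 genes was not tested.

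Genes with the most similar pattern were sought for *Kit* and *Cd34* among 10104 candidates, by the root mean square distance of centred log2 CPM over the 6 libraries. For *Kit* they were *Nlrc5*, *Stambpl1* and *Abca9*, at distances of 0.11, 0.18 and 0.18 on the log2 scale. Each had its highest count of the 6 libraries in endogenous replicate 1, as *Kit* had, which the choice by pattern favours. For *Cd34* they were *Txnrd3*, *Zfp451* and *Setd5*, at 0.056, 0.058 and 0.059.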

How the data were processed

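RNA from 6 samples, 3 per group, was sequenced. Reads passed through SOAPnuke for filtering, HISAT2 and Bowtie2 for alignment and RSEM for quantification by the authors. Per the labels, the submitters' processing notes name mm9, Bowtie2 2.2.5 and RSEM 1.2.12, while the paper names other versions. The authors deposited expected counts without normalization. They also deposited FPKM, TPM and a signal equal to the scaled count, which was not used for results. All 24 columns were mapped by sample name, and 8 columns of group averages were not used.

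Expected counts were rounded (20.6% of values changed) and then fitted in edgeR 4.0.16 under R 4.3.3 (TMM, filterByExpr, glmQLFit, glmQLFTest, no block), adjusted over 14289 genes. The standard error is the log2 fold change over the square root of F. Intervals use the fit's degrees of freedom. The fit was tested on simulated data drawn with the same spread in both groups. Unlike these data they had no unequal spread, so the fit's behaviour under it was not tested. Named genes are the 10 members and genes of lists for partners, ligands, signalling, relatives and cell types, plus the 3 genes most alike for *Kit* and *Cd34* among those with an average log2 CPM of 3 or more. Members and lists were chosen with earlier results of these data known. Promoters are RefSeq GRCm38.p6, matched by symbol, from a different build from the authors', so no other coordinates are given. Alternatives were DESeq2 1.42.0, RLE factors, library size only, 2 other filters, a replicate block, each library left out, limma 3.58.1 with FPKM on the log2 scale after adding 1 or 0.1, and a threshold of 0.001. limma on log2(TPM + 1) was chosen after seeing the data. Same-numbered samples are different mice. Figures were drawn with matplotlib 3.10.9. The sources do not say that each library came from 1 mouse, so the p-values rest on the spread between libraries. The fit takes that spread as common to both groups, whereas their coefficients of variation were 6.77% (MSC-derived) and 35.1% (endogenous).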

Additional observations from a re-analysis of the deposited data

How the results depend on the processing

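All 5 calls of higher genes (*Lmo2*, *Lyl1*, *Flt3*, *Myb* and *Gfi1b*) held in each of the 15 other fits, and so did that of *Cd34*. A threshold of 0.001 left 2 of the 10 genes higher and 0 lower, where 2134 and 2380 of all 14289 genes tested were. The number called lower, 2 in the reported fit, was 1 with library size only, with no filter on low counts, in limma on log2(FPKM + 1) and in limma on log2(FPKM + 0.1), each time through the loss of *Gata2*. Of all genes, 3944 to 4344 were called lower in those fits. With each library left out in turn, 5 to 6 of the 10 genes were called higher and 1 to 3 lower. Of all genes, 3672 to 5563 were called higher and 3761 to 5686 lower in those fits. There *Kit* ranged from -0.046 to 0.91 and *Mecom* from -0.40 to 0.14. The direction turned for *Kit* and *Mecom*, with no call in the turned direction: *Kit* was -0.041 in limma on log2(TPM + 1) and -0.046 without endogenous replicate 3, and *Mecom* was 0.14 without endogenous replicate 1. The median log2 fold change of all genes was 0.05 in the reported fit and moved to 0.16 with library size only, 0.13 and 0.19 in limma on FPKM, and -0.28 in limma on log2(TPM + 1), where 3085 genes were called higher and 5892 lower against 4468 and 4333. Relative to those shifts the 5 higher genes and *Cd34* kept their directions. Genes of the other lists called higher numbered 104 (79 to 118 over all settings) and lower 49 (34 to 58). The replicate number as a block left 1 of the 10 genes called lower and 5 higher, where 3920 and 4103 of all genes were. The numbers did not pair the mice, since deviations of same-numbered samples correlated at 0.0022 to 0.018, and the cause of the lost call was not tested. *Hlf* gained a call as lower without endogenous replicate 1 and in limma on log2(TPM + 1), and *Kit* as higher without endogenous replicate 1. Counts were low for *Flt3* and *Lyl1* in endogenous replicate 1, at 7 and 20.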
